A study of Mus musculus with 6 samples.

Results

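Regulatory T cells and type 2 lymphoid cells are resident immune cells of white fat, and 8 genes that mark them were examined in IngWAT (inguinal white adipose tissue, a subcutaneous depot) of SAKI and WT mice: Foxp3, Ikzf2, Ikzf4, Gata3, Ctla4, Icos, Klrg1 and Areg. The members were the rows of the count tables whose gene name equals 1 of these symbols, 8 of 34745 genes, and 7 of them were among the 15400 genes tested. Bulk RNA-seq was made from IngWAT of 3 SAKI and 3 WT male mice. It does not tell cells resident in the fat from lymphocytes of any lymph node in the pad. SAKI mice carried an Slc35d3 transgene behind a loxP-stop-loxP block (LSL-Slc35d3) together with Cre driven by the adiponectin promoter, which is active in fat cells. WT mice were Slc35d3 transgene carriers that lacked the Cre, as the study's methods describe them, and the labels call their genotype wild type. The transgenic mice were on a C57BL/6 background. Both groups were given a chow diet with 10% of its energy from fat at 6 weeks of age and kept on it for 10 weeks, to 16 weeks of age, and the labels record PBS perfusion for every mouse.

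Of the 7 tested members, 0 differed between SAKI and WT mice at an adjusted p under 0.05 in edgeR's quasi-likelihood test, against 0.0325% of all genes tested (0.0195% higher and 0.013% lower in SAKI mice). DESeq2, which called 4.5% of all genes (1.91% higher and 2.59% lower), and limma-voom also called 0 members. In edgeR 1 member had an unadjusted p under 0.05, against 18.4% of all genes. Ikzf4 and Ikzf2, 2 of 7 members, were higher in each SAKI mouse than in any WT mouse, by 1.81-fold and 1.88-fold in the fitted values, while the groups did not overlap for 25.4% of all genes. Foxp3, Ctla4, Icos, Gata3 and Klrg1 overlapped between the groups, and Areg was not detectable at this depth. Over the same libraries the 20 general T cell markers had a summed level 1.60-fold higher in SAKI mice. Set against that sum, Foxp3, Icos and Klrg1 were lower in each SAKI mouse than in any WT mouse, as were 57.5% of all genes tested. Klrg1 had only 9 to 24 counts a library and overlapped when set against Cd4 alone.

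Foxp3 is the transcription factor that sets and keeps the identity of regulatory T cells, which restrain other lymphocytes. In fat these cells are known to hold high levels of Gata3, Klrg1 and the receptor for interleukin 33, which they share with group 2 innate lymphoid cells. Both cell types can make amphiregulin, the growth factor that Areg encodes and that acts on tissue cells through the epidermal growth factor receptor. Ctla4 and Icos are related surface receptors of T cells, the first a brake and the second an activating signal. Ikzf2 (Helios) and Ikzf4 (Eos) are zinc finger factors of the Ikaros family that act beside Foxp3 in regulatory T cells, and neither is restricted to them.

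The pair that did not overlap between groups shares an origin, so the coding bases of Ikzf2 and Ikzf4 were compared for shared runs. The stretches below are 120 bases around the longest run the 2 coding sequences share, with identical bases in capitals. They encode part of the N-terminal zinc finger region, from coding bases 329 to 448 of transcript Ikzf2-207 and 452 to 571 of transcript Ikzf4-203.
Ikzf2: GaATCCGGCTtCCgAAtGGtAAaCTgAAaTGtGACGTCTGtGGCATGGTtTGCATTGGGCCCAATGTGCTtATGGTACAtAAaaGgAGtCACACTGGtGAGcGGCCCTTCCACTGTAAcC
Ikzf4: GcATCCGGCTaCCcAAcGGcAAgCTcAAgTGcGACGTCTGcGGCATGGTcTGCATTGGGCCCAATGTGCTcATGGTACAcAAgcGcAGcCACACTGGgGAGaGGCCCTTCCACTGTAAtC
In this stretch 100 of 120 bases (83.3%) were identical, and the longest run shared over the 2 whole coding sequences was 20 bases. Over the 4 Ikaros family members expressed in lymphocytes (Ikzf1, Ikzf2, Ikzf3 and Ikzf4) the longest shared run of any pair was 26 bases, between Ikzf1 and Ikzf3. Bases outside the coding sequences, most of the 11613 exon bases of Ikzf2 and 5995 of Ikzf4, were not compared. No read length was set beside these runs, so whether reads of 1 gene were counted for another was not tested.

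RefSeq promoter windows (GRCm38.p6, 250 bases before to 50 after a transcript start) were at hand for Foxp3, Ctla4, Gata3 and Areg. Those of Foxp3 and Ctla4 are shown because these genes mark the same cells and had similar patterns over the mice. Capitals mark the letters TATAAA, the sequence of a TATA box core where it lies shortly before a start. They begin 32 bases before the start in the Foxp3 window and 40 bases after it in the Ctla4 window, which is not the place of a TATA box. The Foxp3 window is on chrX:7579426-7579725 and the Ctla4 window on chr1:60908775-60909074, both on the plus strand.
Foxp3: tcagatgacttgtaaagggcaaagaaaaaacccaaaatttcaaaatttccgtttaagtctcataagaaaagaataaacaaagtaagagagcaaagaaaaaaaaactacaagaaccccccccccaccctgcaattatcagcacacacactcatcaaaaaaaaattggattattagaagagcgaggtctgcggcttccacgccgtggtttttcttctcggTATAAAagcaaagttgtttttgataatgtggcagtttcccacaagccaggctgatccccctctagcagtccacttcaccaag
Ctla4: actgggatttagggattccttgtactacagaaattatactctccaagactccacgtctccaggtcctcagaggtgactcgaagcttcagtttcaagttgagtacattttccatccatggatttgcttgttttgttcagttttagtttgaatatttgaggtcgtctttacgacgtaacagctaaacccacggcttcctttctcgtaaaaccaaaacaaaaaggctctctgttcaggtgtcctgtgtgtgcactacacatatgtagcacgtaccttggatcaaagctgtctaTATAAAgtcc
Both windows hold 1 match to TATAAA on either strand. Areg has 1 as well, 31 bases before the start, and Gata3 has none, and 13.6% of 32851 promoter windows hold a match. The sequence AGATAA, which the zinc finger factor encoded by Gata3 can bind, is absent on both strands from these 4 windows and present once in a second RefSeq window of Foxp3, on chrX:7580233-7580532. It is in 11.2% of all windows, and a match describes the letters of a window only.

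Slc35d3, the gene switched on in SAKI mice, checks the labels. Its level in CPM (counts scaled to a common library total, with TMM factors) was 745, 793 and 770 in SAKI mice, against 73.3, 82.1 and 74.4 in WT mice. All 3 SAKI libraries stood above all 3 WT libraries, with a log2 fold change of 3.33 (SE 0.12, adjusted p = 0.000244, edgeR's quasi-likelihood test). Library totals ranged from 15354161 to 18787036 counts. WT 2 stood apart from the other WT libraries: on the first principal component, which held 50.7% of the variance, it lay at -17.7 beside the SAKI libraries at -22.02 to -19.0, while WT 1 lay at 33.1 and WT 3 at 47.5. Mitochondrial genes took 13.1 to 15.9% of the counts in SAKI libraries and 13.8% in WT 2, against 7.31% in WT 1 and 8.79% in WT 3. Fold changes and ratios of the members are therefore also given without WT 2. Because WT 2 was the WT library most like the SAKI libraries, leaving it out can favour group differences and is no check of their robustness. Which of the WT libraries is the unusual one was not tested. Across all genes 5 of 15400 passed at an adjusted p under 0.05, a background of 0.0325%. Without WT 2 it was 2598 of 15693, or 16.6%.

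Foxp3 did not differ beyond the spread between mice. Its level was 8.80, 11.4 and 12.1 CPM in SAKI mice, against 12.5, 7.13 and 10.2 CPM in WT mice, from 110 to 234 counts a library. The WT libraries held both the highest and the lowest value. The means were 10.8 ± 1.75 CPM in SAKI mice and 9.93 ± 2.67 CPM in WT mice (SD, n = 3 each), and the log2 fold change was 0.12 (SE 0.24, adjusted p = 0.813, edgeR's quasi-likelihood test). Without WT 2 the log2 fold change was -0.07. In bulk tissue fewer cells of a type and less RNA per cell cannot be told apart, for this gene and those below. Foxp3 lies on chrX:7579676-7595243 on the plus strand, and the annotation (GENCODE, GRCm38) places exons of Flicr, Ccdc22, Gm36995 and Ppp1r3f over 853, 590, 373 and 266 of its exon bases. Since the sources used here give no strand setting for the counting, reads from these shared bases are uncertain.

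Ikzf2, which encodes Helios, varied widely among WT mice. It was at 17.5, 18.4 and 21.97 CPM in SAKI mice, against 4.42, 11.1 and 15.4 CPM in WT mice. All 3 SAKI libraries lay above all 3 WT libraries, and WT 1 was the lowest. The means were 19.3 ± 2.35 CPM in SAKI mice and 10.3 ± 5.53 CPM in WT mice (SD, n = 3 each). The log2 fold change was 0.91 (SE 0.40, unadjusted p = 0.0572, adjusted p = 0.283, edgeR's quasi-likelihood test), with 0.97 without WT 2 and 0.54 without WT 1. The exact permutation test on log2(CPM + 1), two-sided, gave p = 0.1 (n = 3 each), the smallest that 3 against 3 allows. The low Ikzf2 value of WT 1 stood in a library in which Foxp3 was at its highest.

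Ikzf4, which encodes Eos, separated the groups with little spread in either. It was at 4.43, 4.66 and 4.81 CPM in SAKI mice, against 2.76, 2.14 and 2.75 CPM in WT mice, from 33 to 93 counts a library. The SAKI values differed from each other by less than the gap to the highest WT value. The means were 4.63 ± 0.189 CPM in SAKI mice and 2.55 ± 0.355 CPM in WT mice (SD, n = 3 each), and the log2 fold change of 0.86 (SE 0.22, unadjusted p = 0.00532, edgeR's quasi-likelihood test) did not pass adjustment over all genes (adjusted p = 0.173). Without WT 2 it was 0.75 with an adjusted p of 0.0578, and DESeq2 gave 0.85 with an adjusted p of 0.0796. Ikzf4 (chr10:128630843-128645991, minus strand) was the 1 member of 7 with an unadjusted p under 0.05, against 18.4% of all genes tested. Of all genes tested 13% were higher in SAKI mice without overlap.

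Gata3, a factor of type 2 helper T cells and innate lymphoid cells that fat regulatory T cells also carry, overlapped between the groups. Its level was 5.67, 6.92 and 5.07 CPM in SAKI mice, against 5.77, 3.50 and 3.99 CPM in WT mice. SAKI 2 was highest, and WT 1 lay between the SAKI libraries. The log2 fold change was 0.41 (SE 0.26, adjusted p = 0.423, edgeR's quasi-likelihood test), and 0.27 without WT 2. Exons of Gm13256 and 9230102O04Rik overlap 155 and 77 exon bases of Gata3, and the reads of these bases are uncertain in the same way.

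Ctla4, the inhibitory receptor, was the 1 tested member with a log2 fold change under 0, and its value depended on which WT library was left out. It was at 9.58, 12.2 and 12.0 CPM in SAKI mice, against 17.4, 4.86 and 17.0 CPM in WT mice. WT 1 and WT 3 were above every SAKI library and WT 2 was below every one. The means were 11.3 ± 1.46 CPM in SAKI mice and 13.1 ± 7.12 CPM in WT mice (SD, n = 3 each), with a log2 fold change of -0.22 (SE 0.44, adjusted p = 0.813, edgeR's quasi-likelihood test). Without WT 2 the log2 fold change was -0.61 (adjusted p = 0.0442, edgeR's quasi-likelihood test), and Ctla4 was then the 1 member called, in a fit that called 16.6% of all genes, 7.41% as higher and 9.14% as lower in SAKI mice. Without WT 1 it was 0.04 and without WT 3 it was 0.02.

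Icos, the activating relative of Ctla4 that lies next to it on chromosome 1 (Ctla4 chr1:60887000-60915832, Icos chr1:60977927-61000320, both plus strand), overlapped between the groups too. Icos was at 17.1, 20.05 and 22.3 CPM in SAKI mice, against 18.4, 13.3 and 16.5 CPM in WT mice. SAKI 2 and SAKI 3 were the highest, and SAKI 1 lay between WT 3 and WT 1. The log2 fold change was 0.30 (SE 0.17, adjusted p = 0.381, edgeR's quasi-likelihood test), and 0.19 without WT 2.

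Klrg1, an inhibitory receptor of effector lymphocytes that binds cadherins, was near the limit of the test. It was at 0.782, 0.711 and 1.24 CPM in SAKI mice, against 1.10, 0.584 and 0.786 CPM in WT mice, from 9 to 24 counts a library. The groups overlapped throughout. The log2 fold change was 0.15 (SE 0.39, adjusted p = 0.853, edgeR's quasi-likelihood test), and changed sign without SAKI 3 (-0.14) or without WT 2 (-0.04).

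Areg had 0 counts in each SAKI library, against 0, 0 and 1 in WT mice. A count of 0 allows up to 3 counts, or 0.196, 0.194 and 0.155 CPM in SAKI mice and 0.184 and 0.194 CPM in WT 1 and WT 2, counting error only. Areg was therefore not tested and its level was not detectable at this depth in 5 of 6 libraries. Over the 7 tested members 6 log2 fold changes were above 0 and their median was 0.30, against a median of -0.004 over all genes tested. WT 2 was the lowest of the 6 libraries for Foxp3, Ikzf4, Gata3, Ctla4, Icos and Klrg1.

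**Figure D1:**
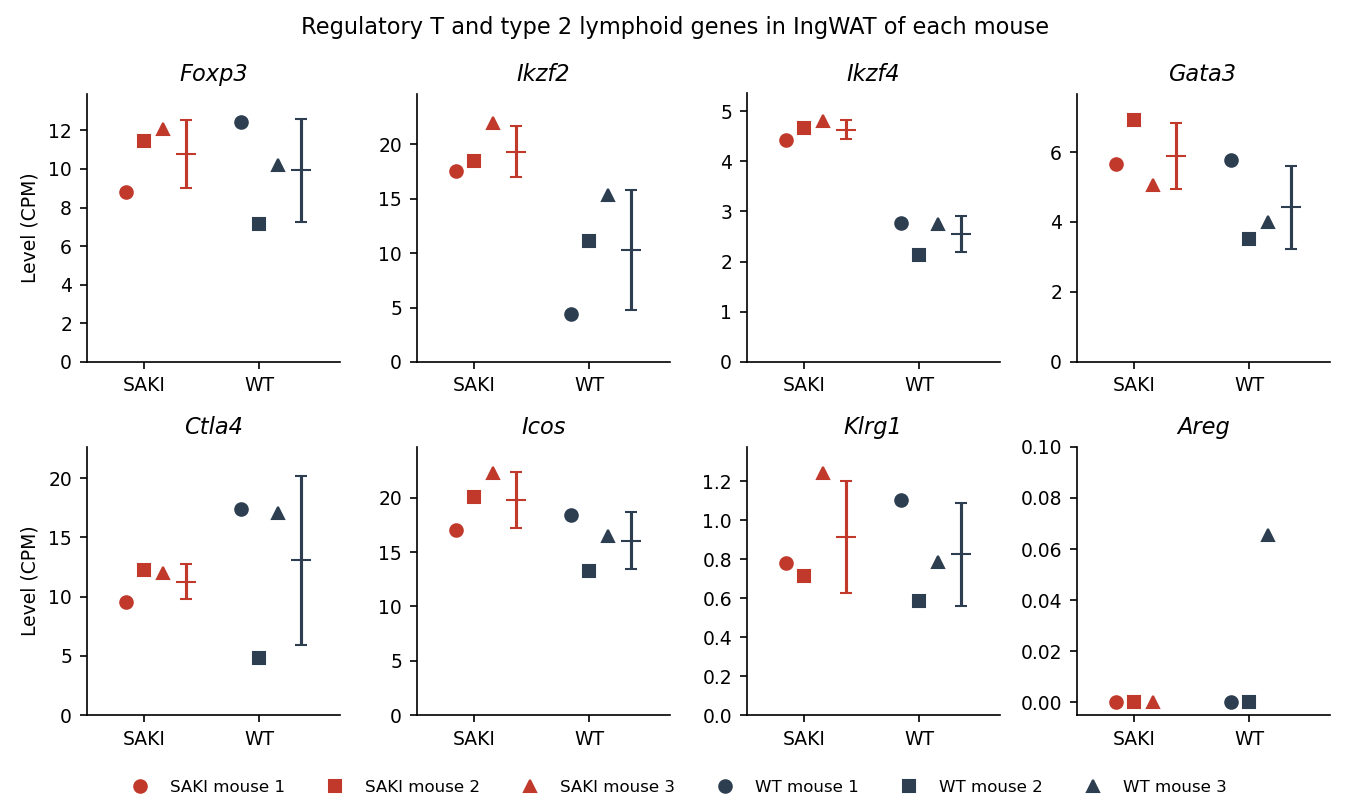
Level in CPM (y axis, linear) of each of the 8 genes in 3 SAKI and 3 WT mice (points), with the mean and SD beside them except for Areg. Ikzf4 and Ikzf2 are higher in every SAKI mouse than in any WT mouse, WT 2 is lowest for 6 genes, and Areg is at 0 in 5 of 6 libraries.

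Between genes, levels were set on a per-length scale, as CPM per kilobase of merged annotated exons. The mean over the 6 libraries was 5.23 CPM per kilobase for Icos and 5.23 for Ctla4, 2.26 for Foxp3, 1.295 for Gata3, 1.28 for Ikzf2, 0.614 for Klrg1, 0.599 for Ikzf4 and 0.009 for Areg. Ctla4 was above Foxp3 in 6 of 6 libraries, Foxp3 above Gata3 in 6 of 6 and Ikzf4 above Areg in 6 of 6. Neighbours that changed places between libraries were Icos and Ctla4 (Icos higher in 4 of 6), Gata3 and Ikzf2 (Gata3 higher in 2 of 6), Ikzf2 and Klrg1 (Ikzf2 higher in 5 of 6) and Klrg1 and Ikzf4 (Klrg1 higher in 4 of 6). The authors' FPKM values gave the same order of means, with Icos at 5.12 FPKM, Ctla4 at 4.23, Foxp3 at 1.55 and Ikzf4 at 0.306. The length behind these FPKM values was longer than the merged exons for 6 of the 8 genes, 11788 against 5995 bases for Ikzf4.

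Patterns over the 6 libraries were compared by the root mean square distance between log2(CPM + 1) values centred and scaled per gene, where 0 is an identical pattern. Among the 6 members with a mean of at least 1 CPM the nearest pairs were Foxp3 and Icos (0.446) and Foxp3 and Ctla4 (0.504). Ikzf2 was 0.763 from Ikzf4, 1.36 from Foxp3 and 1.41 from Ctla4, the 2 largest distances. Over 14558 genes the nearest patterns were those of Ccdc51 and Lpxn for Foxp3 (0.127 each), Msn (0.112) and Ppp1r13b (0.122) for Ctla4, and Mrpl24 (0.092) and Zfp612 (0.159) for Ikzf2. They included Gpr65 for Ikzf4 (0.076), and were Mir142hg (0.111) and Fbxo33 (0.130) for Icos, and Klhl14 (0.121) and Mettl25 (0.143) for Gata3. With 6 libraries these distances describe the mice at hand, and the libraries share their depth and scaling.

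T cell markers moved with the comparison. Of 20 markers, which include the CD3 chains, Lck and Cd4, 17 were higher in every SAKI mouse than in any WT mouse and 20 had a log2 fold change above 0, with a median of 0.74. Their summed level was 895 to 1063 CPM in SAKI mice, against 471 to 763 CPM in WT mice, without overlap. The background over all genes tested was 13% higher and 12.4% lower in SAKI mice without overlap. At an unadjusted p under 0.05 in edgeR it was 8.36% higher and 9.99% lower. Cd4 averaged 83.2 CPM in SAKI mice and 47.6 CPM in WT mice, and Cd8a 56.9 CPM in SAKI mice and 50.1 CPM in WT mice. The 9 measured lymph node stroma genes summed to 565 to 619 CPM in SAKI mice, against 397 to 518 CPM in WT mice. Clu held the largest part of the sum, on average 318 CPM in SAKI mice and 239 CPM in WT mice. Glycam1 averaged 78.8 CPM in SAKI mice and 26.1 CPM in WT mice, without overlap. Cxcl13 (84.1 CPM in SAKI mice and 78.0 CPM in WT mice) and Cr2 (42.9 and 41.9 CPM) overlapped, and Ccl19 had no count. Of 8 tested, 4 were higher in SAKI mice without overlap. B cell markers summed to 1021 to 1187 CPM in SAKI mice, against 651 to 1155 CPM in WT mice. NK cell markers summed to 167 to 206 CPM in SAKI mice, against 104 to 161 CPM in WT mice. Il2rb (on average 51.3 CPM in SAKI mice and 37.1 CPM in WT mice) and Ccl5 (50.7 and 33.6 CPM) held the largest parts. Ncr1 (3.18 and 2.86 CPM) overlapped. Of 14 tested, 4 were higher in SAKI mice without overlap, and 3 had a log2 fold change below 0. Mast cell markers summed to 129 to 166 CPM in SAKI mice, against 102 to 153 CPM in WT mice. Of 10 tested, 5 had a log2 fold change above 0 and 5 below, and 1 (Cpa3) was higher in SAKI mice without overlap. Adipocyte markers, which define the tissue, summed to 25115 to 28193 CPM in SAKI mice, against 27747 to 36705 CPM in WT mice. All 16 had a log2 fold change below 0, with a median of -0.36, and 8 were lower in every SAKI mouse than in any WT mouse. The 12 epithelium markers summed to 10.2 to 13.0 CPM in SAKI mice, against 11.7 to 26.3 CPM in WT mice. Of these, Krt5, Krt15, Elf5 and Csn2 had at most 4 counts in any library and Krt14 had 6 in WT 3 and 0 in the others, while Krt19 had 9, 18 and 21 counts in SAKI mice, against 54, 14 and 105 in WT mice. The 18 immediate early genes, switched on quickly when tissue is disturbed, summed to 795 to 901 CPM in SAKI mice, against 958 to 1400 CPM in WT mice, without overlap, and 15 of 18 had a log2 fold change below 0 (8 with an unadjusted p under 0.05). Genes of B cells and of lymph node stroma were counted in every library. Lymphocytes resident in the fat and those of a lymph node in the pad cannot be told apart here. The part of these marker genes in the members' values was not tested.

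**Figure D2:**
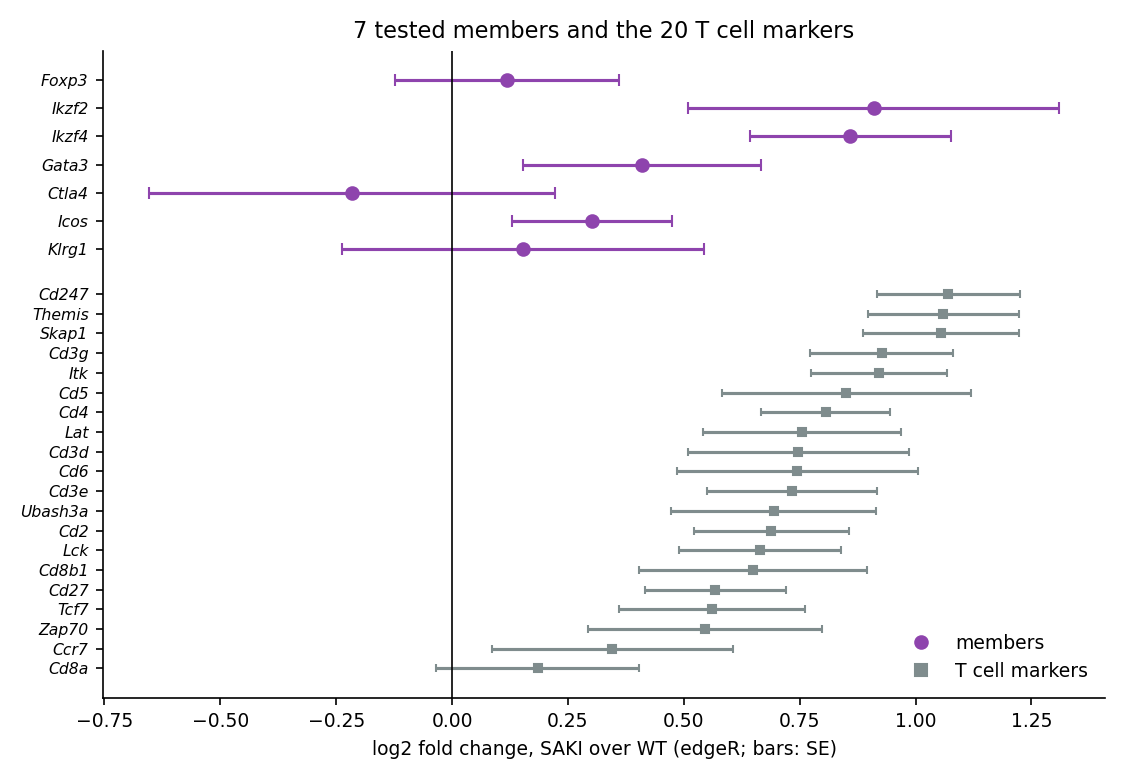
Log2 fold change of SAKI over WT mice (x axis, edgeR, bars are SE) for the 7 tested members and the 20 T cell markers. The T cell markers have a median of 0.74, while Foxp3 lies at 0.12, Icos at 0.30 and Ctla4 at -0.22.

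Each member was then divided by the summed CPM of the 20 T cell markers, a measure chosen after the values were seen. No member is among these markers, so the percentages are ratios to an outside sum. Foxp3 was 0.984, 1.20 and 1.14% of the sum in SAKI mice, against 1.63, 1.51 and 1.73% in WT mice. The groups did not overlap, and the means were 1.11 ± 0.109% in SAKI mice and 1.62 ± 0.108% in WT mice (SD, n = 3 each), a ratio of 0.681 (exact permutation p = 0.1, two-sided, the smallest possible). Without any 1 library the ratio was 0.653 to 0.718, with Cd3e alone as the divisor 0.657 and with Cd4 alone 0.625. Icos was at 1.91, 2.09 and 2.10% in SAKI mice, against 2.41, 2.82 and 2.79% in WT mice, a ratio of 0.760 (0.781 without WT 2). Klrg1 was at 0.0874, 0.0743 and 0.117% in SAKI mice, against 0.145, 0.124 and 0.133% in WT mice, a ratio of 0.693 (0.668 without WT 2). With Cd4 alone as the divisor Klrg1 overlapped between the groups, while Icos did not. The Klrg1 ratios rest on 9 to 24 counts a library. A sum that is itself higher in SAKI mice places any gene lower in SAKI mice, relative to WT mice, than it is in CPM. Of the 15400 genes tested 57.5% had a lower ratio in SAKI mice without overlap, so 3 of 7 members is no higher than that background. Among the T cell markers, each over the sum of the others, 1 of 20 (Cd8a, ratio 0.705) was lower without overlap, and the median ratio was 1.04.

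The Ikaros factors and Ctla4 overlapped between the groups on this scale. Ikzf2 was 1.96, 1.93 and 2.07% of the T cell marker sum in SAKI mice, against 0.579, 2.35 and 2.60% in WT mice, and Ikzf4 was 0.496, 0.486 and 0.452% in SAKI mice, against 0.362, 0.454 and 0.465% in WT mice. WT 1 was the lowest library for both. Ctla4 was 1.07, 1.28 and 1.13% of the sum in SAKI mice, against 2.28, 1.03 and 2.88% in WT mice, with WT 2 alone below the SAKI libraries. Without WT 2 the ratio of the mean percentages, SAKI over WT, was 1.25 for Ikzf2, 1.16 for Ikzf4, 0.449 for Ctla4 and 0.853 for Gata3. With all libraries it was 1.075, 1.12, 0.562 and 0.843 in the same order. Set against Foxp3 itself, Ikzf4 was at 50.4, 40.7 and 39.7% of the Foxp3 level in SAKI mice, against 22.2, 30.0 and 26.9% in WT mice. Ikzf2 was at 199, 161 and 182% of it in SAKI mice, against 35.5, 155 and 151% in WT mice, so that both were higher against Foxp3 in each SAKI mouse than in any WT mouse (exact permutation p = 0.1 each, n = 3 each). Of all genes tested 3.24% were higher against Foxp3 without overlap, and this ratio too was chosen after the values were seen. The T cell marker sum, Cd3e and Cd4 were likewise each higher against Foxp3 in every SAKI mouse than in any WT mouse. The pattern is therefore not particular to the Ikaros factors, which already separated the groups in CPM. The ratio of the means was 1.65 for Ikzf4 and 1.78 without WT 2, and 1.59 for Ikzf2, 1.94 without WT 2 and 1.18 without WT 1.

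**Figure D3:**
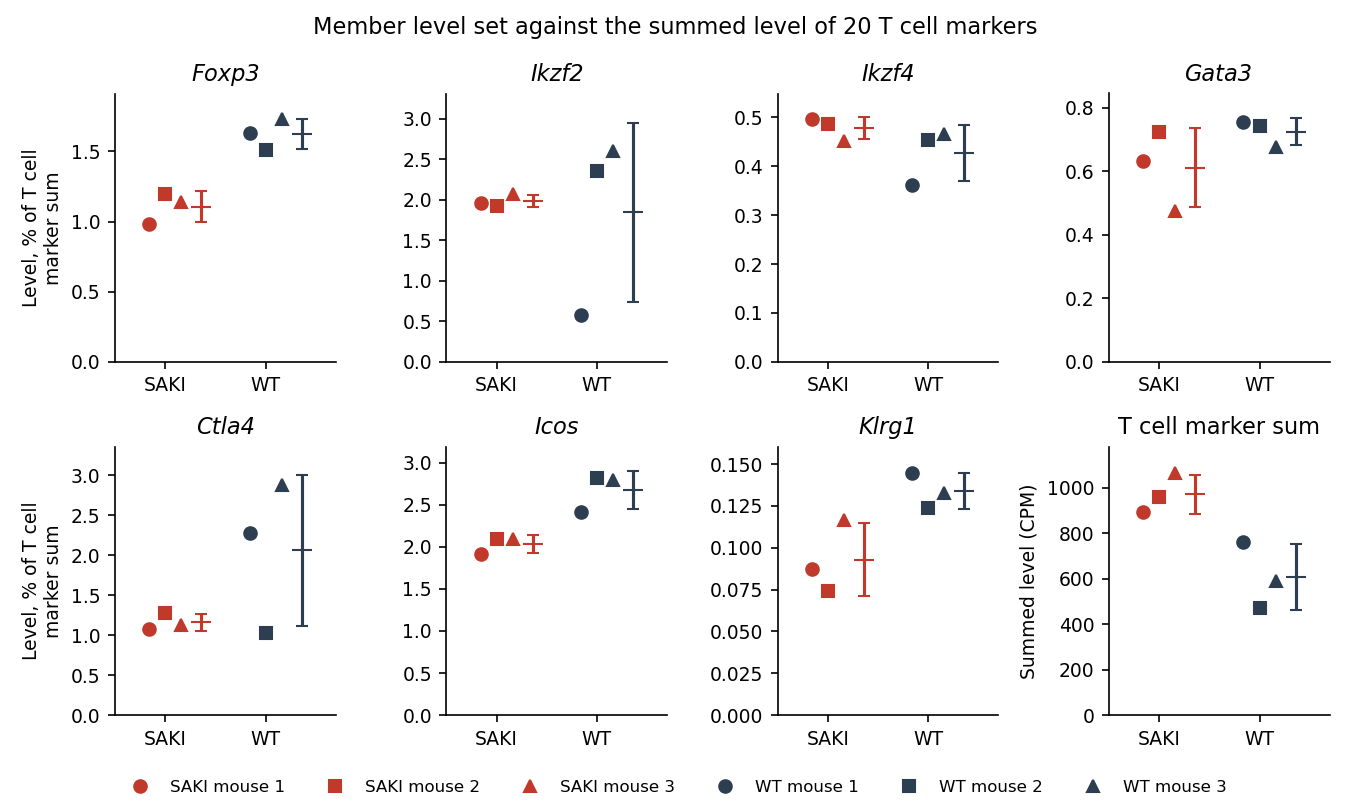
Level of each tested member as a percentage of the summed CPM of 20 T cell markers in 3 SAKI and 3 WT mice, and that sum itself in CPM (last panel), with the mean and SD beside the points. Foxp3 (mean of 1.11% in SAKI mice and 1.62% in WT mice), Icos and Klrg1 are lower in every SAKI mouse than in any WT mouse, as are 57.5% of all genes tested on this scale. Klrg1 rests on 9 to 24 counts a library.

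Of 24 further genes of regulatory T cells 23 were tested and 0 were called, with 5 higher and 2 lower in SAKI mice at an unadjusted p under 0.05, against 8.36% higher and 9.99% lower over all genes. Limma-voom called 0 as well. Their median log2 fold change was 0.35. The 4 of smallest p were Gpr83, a surface receptor enriched in regulatory T cells (5.33 CPM in SAKI mice and 1.38 CPM in WT mice, log2 fold change 1.94, SE 0.32), Ebi3, a subunit of interleukins 27 and 35 (6.24 CPM in SAKI mice and 2.38 CPM in WT mice, 1.39, SE 0.20), Nt5e, the CD73 enzyme that makes adenosine (0.73), and Itgae, the CD103 integrin chain (0.78). Each was higher in every SAKI mouse than in any WT mouse, with adjusted p values of 0.148 to 0.18 from edgeR's quasi-likelihood test. Lrrc32, which holds latent TGF-beta on the cell surface, was named after its values were seen. It was at 26.2, 20.1 and 26.0 CPM in SAKI mice, against 41.2, 34.7 and 101 CPM in WT mice, without overlap. WT 3 was the highest library, and the log2 fold change was -1.29 (SE 0.40, adjusted p = 0.204, edgeR's quasi-likelihood test). The receptors Il2ra, Tnfrsf4 and Tnfrsf18, which regulatory T cells carry at high levels, overlapped between the groups, with log2 fold changes of 0.46, -0.04 and 0.16. Without WT 2 the list had 6 calls, against 16.6% of all genes, and DESeq2 also gave 6, against 4.5% of all genes.

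The ligands and receptors that bind the members were measured in the same tissue. Cd86, a ligand that Ctla4 and the activating receptor Cd28 compete for, was at 33.2, 39.5 and 37.6 CPM in SAKI mice, against 23.9, 25.8 and 23.3 CPM in WT mice (log2 fold change 0.59, SE 0.12, adjusted p = 0.148, edgeR's quasi-likelihood test). Cd28 was at 34.0, 41.6 and 45.2 CPM in SAKI mice, against 26.6, 14.7 and 18.2 CPM in WT mice (1.02, SE 0.23, adjusted p = 0.163 from the same test). Cd80, the other ligand of this pair of receptors, averaged 4.07 CPM in SAKI mice and 3.28 CPM in WT mice. All 3 genes were higher in each SAKI mouse than in any WT mouse, as were 13% of all genes tested, while Ctla4 overlapped. Icosl, the ligand of Icos, averaged 77.8 CPM in SAKI mice and 75.7 CPM in WT mice. Egfr, the receptor of amphiregulin, was expressed at 94.2, 148 and 140 CPM in SAKI mice, against 143, 182 and 227 CPM in WT mice, while Areg was not detectable. Of the cadherins that Klrg1 binds, Cdh1 averaged 2.35 CPM in SAKI mice and 2.54 CPM in WT mice, and Cdh2 12.0 CPM in SAKI mice and 16.5 CPM in WT mice. Erbb3, a relative of Egfr, was higher in each SAKI mouse (8.33 CPM on average, against 5.84 CPM in WT mice). Of the 15 genes of this list 12 were tested and 0 called by edgeR or limma-voom. At an unadjusted p under 0.05, 3 were higher in SAKI mice, against 8.36% of all genes, and the median log2 fold change was 0.02. Without WT 2 the list had 3 calls, against 16.6% of all genes, and DESeq2 gave 2, against 4.5% of all genes.

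Among 28 further genes of type 2 lymphoid cells and the alarmins that act on them, 21 were tested and 0 were called by edgeR or limma-voom. At an unadjusted p under 0.05 in edgeR, 5 were higher and 1 lower in SAKI mice, against 8.36% and 9.99% of all genes. The median log2 fold change of the tested genes was 0.31. Il7r, the interleukin 7 receptor of T cells and innate lymphoid cells, was at 125, 152 and 134 CPM in SAKI mice, against 63.0, 46.2 and 79.5 CPM in WT mice (log2 fold change 1.12, SE 0.20, adjusted p = 0.148, edgeR's quasi-likelihood test). Il1rap, the co-receptor for interleukin 33, averaged 22.4 CPM in SAKI mice and 11.6 CPM in WT mice, Hpgds, a prostaglandin D2 synthase, 11.0 CPM in SAKI mice and 5.86 CPM in WT mice, and Id2, a factor that innate lymphoid cells need, 39.6 CPM in SAKI mice and 31.9 CPM in WT mice. These 4 genes, the 4 of smallest p in the list, were higher in each SAKI mouse than in any WT mouse. No other tested gene of the list was without overlap, against 13% higher and 12.4% lower over all genes. Of the 21 tested, 13 had a log2 fold change above 0 and 8 below. Interleukin 33 and its receptor, named after their values were seen, were highest in WT 1 and WT 3. Il33 was at 19.8, 11.6 and 14.0 CPM in SAKI mice, against 38.8, 10.1 and 31.8 CPM in WT mice, and Il1rl1 at 13.0, 16.8 and 17.8 CPM in SAKI mice, against 45.8, 15.3 and 29.3 CPM in WT mice. WT 2 lay under the SAKI libraries for Il33 and among them for Il1rl1. The type 2 cytokines were at or near 0: Il4 had 2, 0 and 5 counts in SAKI mice, against 0, 1 and 0 in WT mice, Il5 had 0, 0 and 0 counts in SAKI mice, against 3, 5 and 0 in WT mice, Il13 had 0, 0 and 1 counts in SAKI mice, against 0, 2 and 0 in WT mice, and Il9 had 0 in all 6 libraries. Without WT 2 the list had 6 calls, against 16.6% of all genes, and DESeq2 gave 1, against 4.5% of all genes.

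Eosinophils and alternatively activated macrophages are the cells that type 2 cytokines act on. Of 18 such genes 17 were tested and 0 called by edgeR or limma-voom. At an unadjusted p under 0.05 in edgeR, 1 (Ccl11) was lower in SAKI mice, against 9.99% of all genes. Of the 17 tested, 12 had a log2 fold change above 0 and the median was 0.54. Ccl11, the eosinophil attractant eotaxin, was lower in each SAKI mouse (41.8, 38.0 and 32.1 CPM, against 56.3, 52.3 and 69.1 CPM in WT mice, log2 fold change -0.67, SE 0.15, adjusted p = 0.163, edgeR's quasi-likelihood test). Prg2, an eosinophil granule protein, averaged 1.26 CPM in SAKI mice and 0.676 CPM in WT mice, from 7 to 24 counts a library. Il5ra, the interleukin 5 receptor of eosinophils, averaged 4.89 CPM in SAKI mice and 3.39 CPM in WT mice. The eosinophil genes Siglecf, Ccr3 and Ear2 overlapped between the groups, and WT 2 was the highest library for each of them. Cd163, a scavenger receptor of tissue macrophages, was at 283, 359 and 370 CPM in SAKI mice, against 55.7, 284 and 42.4 CPM in WT mice, with WT 2 at the level of SAKI mice. Without WT 2 this list had 11 calls, 10 of them higher in SAKI mice, in a fit that called 16.6% of all genes. DESeq2 gave 1, against 4.5% of all genes. The general macrophage markers summed to 2489 to 2995 CPM in SAKI mice, against 1098 to 2466 CPM in WT mice, where WT 2 was the highest of the WT libraries, and their part in these values was not tested.

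**Figure D4:**
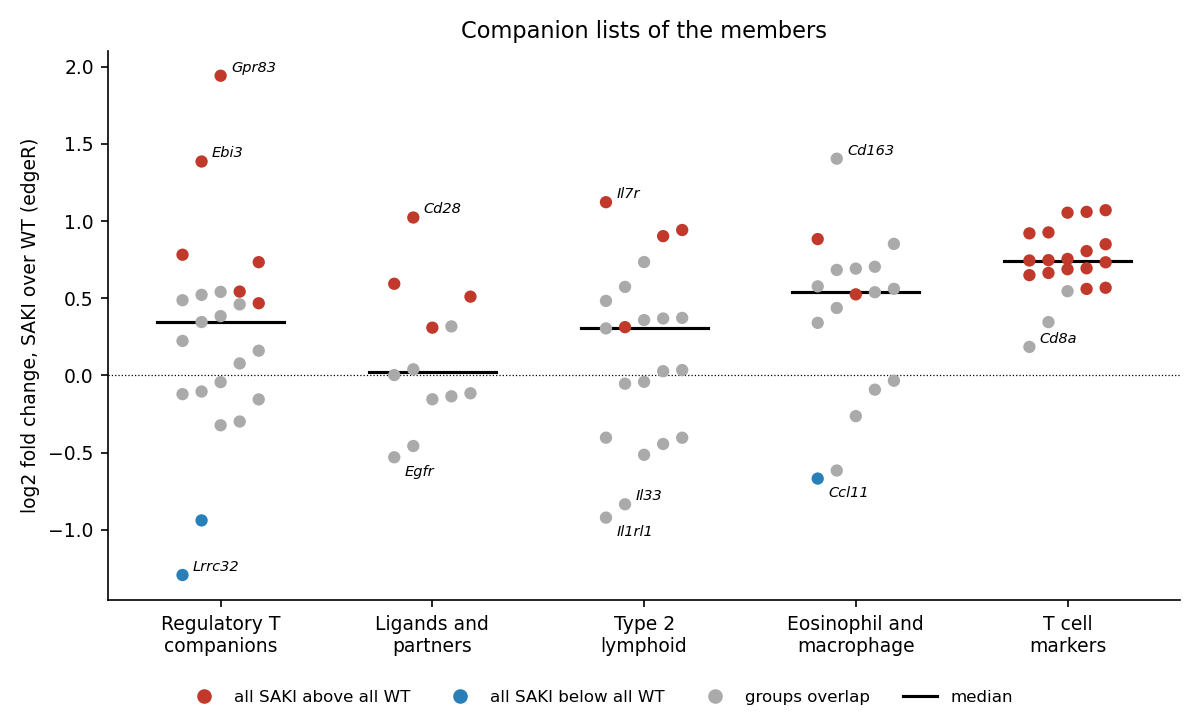
Log2 fold change of SAKI over WT mice (y axis, edgeR) for the tested genes of 4 companion lists and the T cell markers, 1 point a gene, coloured by whether the groups overlap, with the list median as a line. Medians are 0.35, 0.02, 0.31, 0.54 and 0.74 from left to right, and no gene shown passed an adjusted p under 0.05.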

How the data were processed

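The authors deposited raw counts per gene for each library, not normalized, and a table of FPKM values for all libraries. Tools in the submitters' processing notes are StringTie 1.3.0, HISAT2 2.0.4 and Bowtie2 2.2.6, with the build GRCm38. For counting, the tool and strand were not given in the sources used here. Names turned into dates (26) were restored from gene IDs.

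Counts were tested with edgeR 4.0.16 in R 4.3.3: filterByExpr (minimum count 10, total 15), TMM factors, genotype alone, quasi-likelihood test, Benjamini-Hochberg over 15400 genes, adjusted p under 0.05. The study's methods state no test for single genes. The steps were tested on simulated counts. Depth was 15354161 to 18787036 counts a library, and limits from counts cover counting error only.

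Genes named were the 8 members, Slc35d3, up to 4 genes of smallest p in each of 4 companion lists, the direct ligands and receptors, and the 2 nearest patterns per member, of which 1 gene is not reported here. Of 218 list symbols 215 matched 1 row. The members and lists were chosen with earlier results of these data known. Alternatives were DESeq2 1.42.0, limma-voom (limma 3.58.1), scaling by RLE or upper quartiles, 2 other filters, the replicate number as a block, B and T cell marker scores as covariates, each library left out, and limma on log2(FPKM + 1) and log2(FPKM + 0.1). Added after seeing the data were the ratios to T cell markers and to Foxp3, with other divisors and each library left out.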

Additional observations from a re-analysis of the deposited data

How the results depend on the processing

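Replicate numbers did not pair the mice: deviations of same-numbered SAKI and WT libraries correlated at 0.0714, 0.0709 and 0.06. With the replicate block 1 gene was called in place of 5, and 0 members. Of all genes 679 passed with DESeq2 (288 higher and 391 lower), 655 with the B cell score as a covariate, 0 with the T cell score, 8 with no filter, and 12 on log2(FPKM + 1) and also on log2(FPKM + 0.1). Leaving out 1 library gave 1 to 2598 calls, the highest without WT 2. Members called were 0 under each alternative except without WT 2, where it was 1 (0 to 1 over the libraries left out). Further regulatory T cell genes had 6 calls with DESeq2, 3 with the B cell score, 1 on log2(FPKM + 1) and 1 on log2(FPKM + 0.1), and 0 to 6 with a library left out. Ligands and partners had 2 with DESeq2 and 0 to 3 with a library left out. Type 2 lymphoid genes had 1 with DESeq2, 2 with the B cell score and 0 to 6 with a library left out. Eosinophil and macrophage genes had 1 with DESeq2, 4 with the B cell score and 0 to 11 with a library left out. Over the libraries left out, these list calls were highest without WT 2, where 16.6% of all genes were called, against 4.5% with DESeq2.

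Signs turned with the B cell score for Foxp3 (-0.21), Klrg1 (-0.16), Icosl (-0.23) and Cd8a (-0.12), and with the T cell score for Foxp3 (-0.76), Klrg1 (-1.001), Icos (-0.27), Gata3 (-0.16), Icosl (-0.63), Cd8a (-0.68) and Cdh1 (0.14). Ctla4 turned on log2(FPKM + 0.1) (0.0038). With a library left out the ranges that crossed 0 were -0.0677 to 0.313 for Foxp3, -0.606 to 0.0407 for Ctla4, -0.14 to 0.42 for Klrg1, -0.14 to 0.23 for Icosl, -0.276 to 0.0644 for Cdh1 and -0.0115 to 0.445 for Cd8a. The T cell score separates the groups, so it takes up part of the genotype term, and Slc35d3 then had an adjusted p of 0.0563 (log2 fold change 3.47). For the other changes the cause was not tested. Ikzf2 and Ikzf4 stayed above 0 under each of 18 alternatives, with adjusted p values of 0.184 to 0.548 and 0.0578 to 0.53. Scaling by RLE or upper quartiles moved the median of all genes by less than 0.1. No list or member count of 3 against 3 mice can be read as absence, and Klrg1 and Areg are limited by their counts.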
